A study of Mus musculus with 33 samples.

Results

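H3K4me3 domains were compared between wild type (WT) and Uhrf1 KO embryoid bodies (EBs) at week 1 of differentiation. The comparison used the 2 libraries of this mark and stage, 1 per genotype, out of 33 samples in the series, and all of their domains were members: 18672 in the WT list and 19041 in the Uhrf1 KO list, of 193233 in all H3K4me3 lists. A domain was called shared when it overlapped a domain of the other genotype by at least 1 bp, and WT-only or KO-only otherwise. EBs are aggregates in which embryonic stem cells differentiate toward all germ layers. Both genotypes were differentiated from E14 mouse embryonic stem cells (mESC) in hanging drops, the WT EBs with intact Uhrf1 and the KO EBs from a Uhrf1 KO E14 line. Both lines were obtained from the same other group, and the sources used here do not say whether the KO line is a single clone. Before differentiation the cells had been kept in serum and leukemia inhibitory factor on gelatin or on mouse embryonic fibroblasts. With 1 library per genotype there was no spread between replicates and no test, and the intervals below are 95% intervals over domains or promoters that cover counting error only.

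H3K4me3 is deposited by the Set1 and MLL (COMPASS) methyltransferases and is typical of the promoters of active genes, above all those rich in CpG. In stem cells the promoters of many developmental regulators carry it together with the repressive Polycomb mark H3K27me3, a combination called bivalent. Uhrf1 binds hemimethylated DNA and H3K9me3 and recruits the maintenance DNA methyltransferase Dnmt1.

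The lists give regions and a mean read count per bin for each domain, and the bin was 400 bp in WT and 350 bp in KO. The methods state that reads were scaled to mapped totals but not whether this holds for the mean count, and therefore domains are given below by their percentile of mean count within their own list. The promoter of Uhrf1 (chr17:56442744-56462909) carried a domain in both genotypes, at percentiles 69.2 in WT and 65.9 in KO, which does not check the knockout since the mark reports the promoter and not the protein. Promoters of all 30 ribosomal protein genes examined were marked in both lists. Of 18 olfactory receptor and hair keratin genes, which are not typical of EBs, 0 were marked in WT and 1 in KO. Fibroblast feeder genes were marked at 10 of 20 promoters in each genotype, and the contribution of feeder cells was not tested. Chromosomes 8 and 11 stood apart from the others in the overlap of the lists. On chromosome 8, 565 of 1262 WT domains (44.8%) were WT-only. On chromosome 11, 589 of 1968 KO domains (29.9%) were KO-only, and 456 of 1606 WT domains (28.4%) were WT-only. The other 17 autosomes had 18.6% to 26.3% WT-only and 11.2% to 23% KO-only domains.

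The upstream sequence of promoters at which the lists differed is shown first, because lost, kept and gained promoters differed in CpG content. Sequences are the 250 bases before the gene's outermost start in the NCBIM37 (mm9) assembly, 5' to 3' on the strand of the gene, with each CpG (the letters CG, the same on both strands) in capitals. Pou5f1 (chr17:35642732-35642981, plus strand) and Neurod1 (chr2:79296909-79297158, minus strand) had a WT domain and no KO domain at the promoter. Nkx2-5 (chr17:26978511-26978760, minus strand) was marked in both genotypes. Afp (chr5:90919490-90919739, plus strand) and Myh7 (chr14:55613472-55613721, minus strand) were marked in KO alone. These 5 were picked for display after their values were seen.
Pou5f1: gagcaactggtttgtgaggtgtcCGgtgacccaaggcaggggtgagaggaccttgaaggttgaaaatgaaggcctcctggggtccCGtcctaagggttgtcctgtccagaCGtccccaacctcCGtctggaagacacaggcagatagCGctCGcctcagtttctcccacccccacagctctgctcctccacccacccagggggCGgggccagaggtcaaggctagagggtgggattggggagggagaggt
Neurod1: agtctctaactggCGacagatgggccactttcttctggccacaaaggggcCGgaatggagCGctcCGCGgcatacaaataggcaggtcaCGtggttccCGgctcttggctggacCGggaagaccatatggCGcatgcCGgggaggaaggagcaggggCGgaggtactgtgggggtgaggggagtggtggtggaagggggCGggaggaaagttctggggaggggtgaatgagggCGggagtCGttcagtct
Nkx2-5: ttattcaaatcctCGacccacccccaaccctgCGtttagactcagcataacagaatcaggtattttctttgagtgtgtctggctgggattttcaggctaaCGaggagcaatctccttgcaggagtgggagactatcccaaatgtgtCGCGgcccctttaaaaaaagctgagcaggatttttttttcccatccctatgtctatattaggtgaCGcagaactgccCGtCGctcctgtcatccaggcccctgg
Afp: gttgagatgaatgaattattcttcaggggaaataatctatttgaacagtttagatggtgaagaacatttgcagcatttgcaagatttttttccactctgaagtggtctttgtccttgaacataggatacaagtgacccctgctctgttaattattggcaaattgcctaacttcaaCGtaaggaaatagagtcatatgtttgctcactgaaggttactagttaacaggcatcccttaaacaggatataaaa
Myh7: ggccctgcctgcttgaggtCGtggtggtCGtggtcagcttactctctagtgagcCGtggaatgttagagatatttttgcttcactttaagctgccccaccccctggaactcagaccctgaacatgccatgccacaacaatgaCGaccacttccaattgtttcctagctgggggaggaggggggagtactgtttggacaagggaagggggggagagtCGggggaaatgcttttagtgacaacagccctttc

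The next 5 are among the lost, gained and kept promoters of highest rank. Gm10106 (chr9:3031835-3032084, plus strand) was lost, 2810055G20Rik (chr16:77329254-77329503, plus strand), Xlr3a (chrX:70342435-70342684, minus strand) and Slc45a2 (chr15:10930226-10930475, plus strand) were gained, and Gm10801 (chr2:98502144-98502393, plus strand) was kept. The Gm10106 sequence is tandemly repeated around it, and the lost promoters of Gm17535 and Gm10715 in the same domain are close copies that are not shown.
Gm10106: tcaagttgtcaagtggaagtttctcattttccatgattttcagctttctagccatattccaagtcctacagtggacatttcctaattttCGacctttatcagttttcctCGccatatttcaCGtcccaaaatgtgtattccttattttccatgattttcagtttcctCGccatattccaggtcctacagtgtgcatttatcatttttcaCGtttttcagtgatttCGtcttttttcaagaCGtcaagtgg
2810055G20Rik: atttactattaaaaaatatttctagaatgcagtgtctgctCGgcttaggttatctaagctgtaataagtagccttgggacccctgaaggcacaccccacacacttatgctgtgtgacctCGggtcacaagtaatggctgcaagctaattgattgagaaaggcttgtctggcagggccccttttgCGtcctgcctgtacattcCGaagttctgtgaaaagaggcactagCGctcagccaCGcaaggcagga
Xlr3a: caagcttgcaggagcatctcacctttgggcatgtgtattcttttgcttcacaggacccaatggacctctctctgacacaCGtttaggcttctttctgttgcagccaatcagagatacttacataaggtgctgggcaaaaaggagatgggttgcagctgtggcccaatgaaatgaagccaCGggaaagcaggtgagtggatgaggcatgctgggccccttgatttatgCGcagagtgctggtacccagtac
Slc45a2: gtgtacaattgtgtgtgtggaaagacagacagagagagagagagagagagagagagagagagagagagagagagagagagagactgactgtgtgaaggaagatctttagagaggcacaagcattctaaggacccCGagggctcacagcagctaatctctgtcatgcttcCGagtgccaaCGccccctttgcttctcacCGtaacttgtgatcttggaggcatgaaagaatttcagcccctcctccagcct
Gm10801: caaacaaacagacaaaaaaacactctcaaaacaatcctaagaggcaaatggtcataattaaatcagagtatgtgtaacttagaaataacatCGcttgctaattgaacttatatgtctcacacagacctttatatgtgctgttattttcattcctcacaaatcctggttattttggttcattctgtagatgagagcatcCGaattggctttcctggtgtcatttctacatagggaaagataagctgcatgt

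Over all 22367 protein-coding promoters, the window of 250 bases held a median of 15 CpG at kept, 9 at lost, 3 at gained and 2 at unmarked promoters. At least 1 CpG was present in 92.5% of all windows, 99.2% of kept, 96.6% of lost and 92.8% of gained ones. The printed Neurod1 window has 14 CpG and that of Pou5f1 has 7, whereas Afp has 1. Within 500 bp of the start, 35.7% of lost promoters were CpG island-like (GC of at least 50% and an observed to expected CpG ratio of at least 0.6) against 72.6% of kept ones, a difference of -36.9 percentage points. Gained promoters were rarely CpG island-like (4.18%), close to promoters marked in neither genotype (3.77%).

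In the WT list, 4619 of 18672 domains (24.7%, 24.1% to 25.4%) had no KO domain, and in the KO list 3533 of 19041 (18.6%) had no WT domain. These unshared domains were short and covered little sequence. WT-only domains had a median length of 1600 bp against 6000 bp for shared WT domains, and they made up 8.97% of the sequence in the WT list. KO-only domains had a median length of 700 bp against 3850 bp for shared KO domains, and made up 5.38% of the KO list. The lists differed more in extent than in number: WT domains covered 107.0 Mb and KO domains 73.4 Mb, and the 63.8 Mb covered in both was 59.7% of the WT and 87.0% of the KO sequence. A single bin made up 12.6% of WT-only and 28.3% of KO-only domains, against 1.42% of shared WT domains. Domains of at least 5 kb were 5.98% of WT-only, 1.27% of KO-only and 59.6% of shared WT domains.

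Unshared domains also ranked low. The median percentile of mean count was 19.7 (18.9 to 20.5) for WT-only and 61.3 for shared WT domains, and 28.8 (28 to 30.2) for KO-only and 56.5 for shared KO domains. When each list was split into 5 equal groups by mean count, the WT-only share fell from 62.8% in the lowest group to 38.9%, 15.8%, 4.90% and 1.34% in the highest. The KO-only share was 32.9%, 24.6%, 24.6%, 7.75% and 2.99% in the same order. The WT list thus lost its overlap mostly at its weakest domains, while in the KO list the 3 lower groups were closer to each other.

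**Figure D1:**
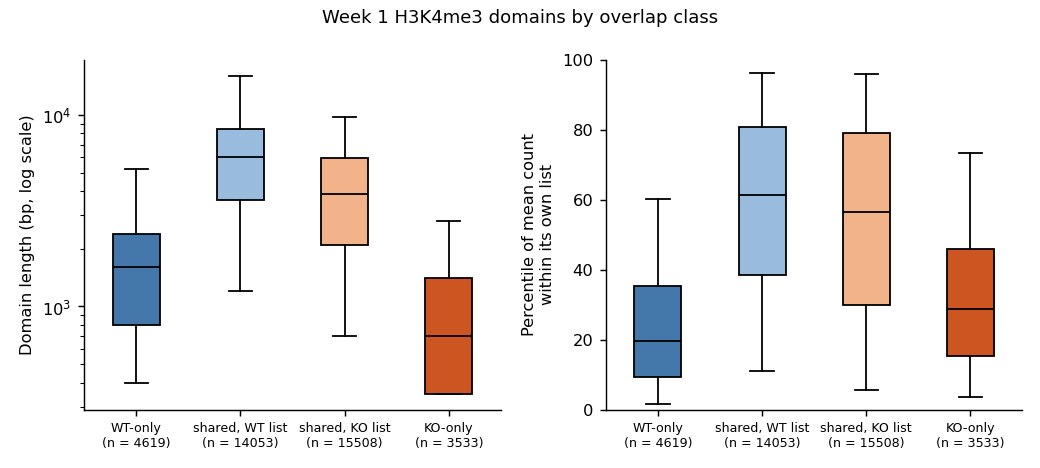
Domain length (bp, log axis, left) and percentile of mean count within a list (right) for WT-only, shared and KO-only week 1 H3K4me3 domains; lines are medians, boxes the middle 50% and whiskers the 5th and 95th percentiles. WT-only domains have a median of 1600 bp and percentile 19.7, and KO-only domains 700 bp and 28.8, below both shared classes.

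The position of domains relative to genes differed between the classes. The overlap rule did not use position. A longer domain has more room both to meet another domain and to touch a promoter, however, and the shares were not matched on length. Shared domains lay mainly at promoters, within 2 kb of the start of a protein-coding gene: 72.8% of shared WT and 70.9% of shared KO domains did. Of WT-only domains 23.2% (22% to 24.4%) touched a promoter and of KO-only domains 6.68% (5.90% to 7.55%), the KO-only share being the lower one, with a difference of -16.5 percentage points (-18 to -15.0). KO-only domains were mostly intergenic (50.4%) or within introns (32.2%), and WT-only domains were intergenic in 40.4% and intronic in 22.6%. WT-only domains at promoters had a median length of 2400 bp. In the lowest of the 5 groups by mean count, 26.7% of WT-only and 45.9% of shared WT domains touched a promoter. In the highest group 14% and 83.3% did. For KO-only and shared KO domains these shares were 7.79% and 51.2% in the lowest group. They were 5.26% and 82.5% in the highest.

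**Figure D2:**
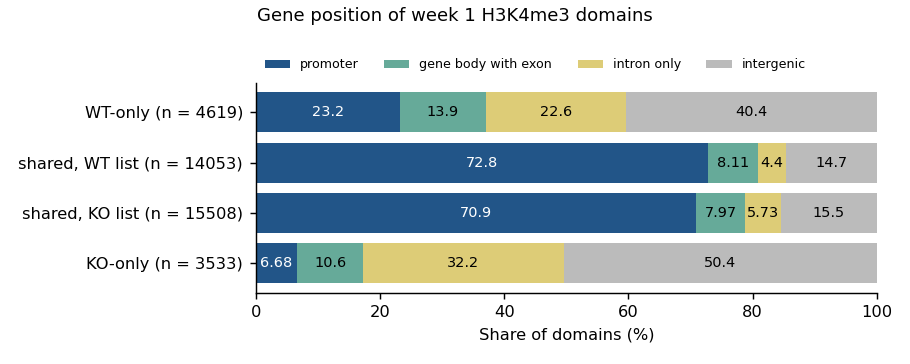
Share of domains (%) in each class at promoters (within 2 kb of a coding start), elsewhere in a gene body touching an exon, in introns only, or intergenic. Promoters hold 72.8% of shared WT domains, 23.2% of WT-only and 6.68% of KO-only domains.

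Most unshared domains were not particular to week 1. They recurred less often than shared domains, however. Of WT-only domains, 52.1% overlapped an H3K4me3 domain of WT mESC, 71.8% of WT week 2 and 66.4% of WT week 3. Of shared WT domains 88.8%, 98.8% and 97.9% did, and 82.1%, 97.9% and 97.9% in the KO lists of these stages. In these KO lists WT-only domains were found less often in mESC, with 33.1%, but in 60.2% at week 2 and 66.1% at week 3. Thus 76.7% of WT-only domains, and 947 of the 1072 at promoters (88.3%), carried H3K4me3 in the KO at some other stage. KO-only domains were found in WT week 2 in 52.1% and in KO week 2 in 57.5%, but in mESC in 20.1% (WT) and 18.2% (KO). For shared KO domains the shares in the same order were 98.5%, 97.5%, 89.1% and 82.4%. These lists differed in size. The WT and KO lists held 15272 and 11509 domains in mESC, 39898 and 32702 at week 2, and 27350 and 28789 at week 3. A longer list can overlap more domains, and the shares were not adjusted for list size. No other H3K4me3 list held 12% of WT-only, 21.7% of KO-only and 0.249% of shared WT domains.

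Repressive marks from other libraries were unevenly placed on the classes. At week 1, H3K27me3 domains of WT overlapped 29.3% of WT-only domains, which was 9.26 percentage points (7.80 to 10.7) above the share of shared WT domains. This difference lay at promoters, where 59.9% of 1072 WT-only and 20.3% of shared WT domains overlapped H3K27me3, whereas of the 3547 WT-only domains elsewhere 20.02% did, against 19.1% of shared ones. KO-only domains overlapped WT week 1 H3K27me3 in 7.56%, against 18.4% of shared KO domains, and KO week 1 H3K27me3 in 15.3% against 17.3%. That order was the opposite in most H3K27me3 lists of other stages, with 37.8% of KO-only against 28.2% of shared KO domains for WT mESC, 33.3% against 19.5% for WT week 2, 32.6% against 25.1% for WT week 3, 24.5% against 19% for KO week 2 and 21.7% against 16.2% for KO week 3. For KO mESC the shares were 5.75% and 6.34%. H3K9me3 of WT mESC, the mark of constitutive heterochromatin, overlapped 40.2% of KO-only and 20.7% of shared KO domains, and 29.9% of WT-only and 22% of shared WT domains. Regions enriched for Uhrf1 itself in WT mESC held 1.56% of WT-only and 1.32% of shared WT domains, a difference whose interval includes 0, and 2.21% of KO-only and 1.15% of shared KO domains.

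At the level of genes, a promoter was called kept when both genotypes had a domain within 2 kb of the start, lost when only WT had one and gained when only KO had one. Of 13885 coding promoters marked in WT, 1394 were lost (10.04%, 9.55% to 10.6%), and of 8482 not marked in WT, 263 were gained (3.10%, 2.75% to 3.49%). When no domain of the other genotype was allowed within 5 kb, 1169 promoters (8.42%) remained lost and 228 (2.69%) gained. Lost promoters had weak WT domains, with a median percentile of 19.1 against 67.9 for kept ones, and a median domain length of 3200 bp against 7200 bp. In 278 of the 1394 (19.9%) the WT domain at the promoter was a shared one that a KO domain met elsewhere along its length. Lost promoters were marked in KO mESC in 46.6%, in KO week 2 in 70.3% and in KO week 3 in 83.4%. Kept promoters were marked more often in these lists, in 91.3%, 99.02% and 99.2%. Promoters marked in neither genotype at week 1 were marked there less often, in 7.62%, 10.7% and 12.2%. These shares, too, were not adjusted for the different sizes of the lists.

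Bivalent promoters were lost more often than promoters with H3K4me3 alone. With WT H3K27me3 within 5 kb, 853 of 3410 marked promoters were lost (25%), and without it 541 of 10475 (5.16%), a difference of 19.9 percentage points (18.4 to 21.4). Because bivalent promoters also had weaker H3K4me3, the shares were compared within 5 groups of WT mean count, the 5 equal groups of the WT list. From the lowest to the highest group, 56.1%, 26.7%, 10.9%, 2.99% and 2.30% of bivalent promoters were lost against 46.2%, 14.5%, 4.76%, 1.75% and 0.770% of the others, so the share was higher with H3K27me3 in each of the 5 groups. The intervals overlapped in the 4th group. Most lost bivalent promoters kept the repressive mark: of all lost promoters, 693 (49.7%) had H3K27me3 in both genotypes, 160 in WT alone and 454 (32.6%) in neither. Promoters that were not CpG island-like were lost in 20.7% and CpG island-like ones in 5.20%, and the former share was higher in each of the 5 groups, from 61.1% against 45% in the lowest to 3.36% against 0.0676% in the highest.

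**Figure D3:**
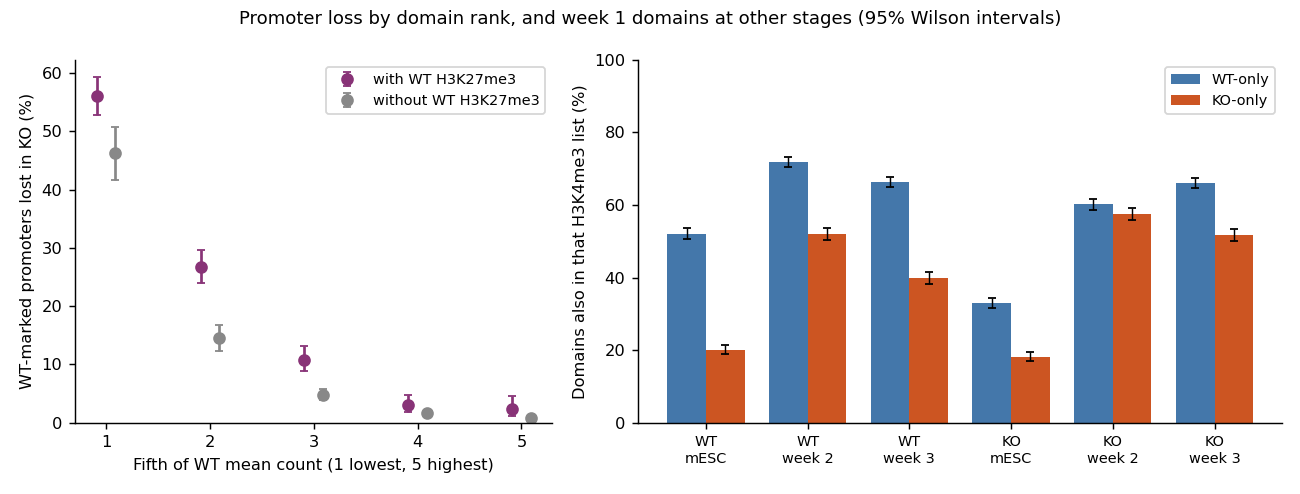
Left, share of WT-marked promoters lost in KO (%) in 5 groups by WT mean count, with and without WT H3K27me3; right, share of WT-only and KO-only week 1 domains that overlap the H3K4me3 list of another stage; bars on points and columns are 95% Wilson intervals. Loss falls from 56.1% to 2.30% with H3K27me3 and from 46.2% to 0.770% without it, and 71.8% of WT-only domains recur in WT week 2.

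The genes behind these counts are described by 23 lists of developmental and housekeeping genes, beside the 10% lost and 3.10% gained over all coding promoters. As a second reference, losses by rank are the number of losses that would follow if its members were lost at the share seen over all promoters in the same groups of WT mean count.

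Among pluripotency genes, 7 of 15 WT-marked promoters were lost, against 3.03 by rank, and 0 were gained. Pou5f1, which encodes Oct4, had a WT domain of 1600 bp at percentile 6.31 and none in KO. Zfp42 (Rex1), a marker of naive stem cells, had one of 3600 bp at percentile 51.1, and Tdgf1, a Nodal co-receptor, one at 48.0. The Nodal antagonists Lefty1 and Lefty2 were at percentiles 52.2 and 16.6, the germ cell regulator Prdm14 at 13.9 and Dppa3 (Stella) at 2.60. All 7 were marked in KO mESC and again in KO at week 2 or 3. Of the 8 kept promoters Sox2 was at 26.2 in WT and 25 in KO, whereas Klf4 was at 70.9 and 30.4, and Tfcp2l1 at 52.3 and 12.7, while Tbx3 was at 72.8 and 89.7 and Klf5 at 32.8 and 43.1. The median difference over the 8 was -3.72 (KO minus WT), near the -3.04 of all kept coding promoters. Nanog and Esrrb were among 10 promoters marked in neither genotype, although Nanog had a domain within 5 kb in both genotypes and Esrrb had none.

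Regulators of gastrulation followed a similar course. Of 13 WT-marked promoters of primitive streak and mesendoderm genes, 7 were lost (3.38 by rank): T (Brachyury, percentile 4.47), Mixl1 (18.9), Gsc (2.8), Mesp1 (1.12), the ligands Wnt3 (49.1) and Fgf8 (28.3), and Evx1 (19.5). All 5 members in the lowest group of WT mean count were lost. Eomes was kept and ranked higher in KO, at 79.7 against 52.4 in WT, and the endoderm regulator Foxa2 was kept and ranked lower, at 3.53 against 43.1. Of 8 marked epiblast promoters 3 were lost (1.81 by rank), Pou3f1 (26.7), Nodal (27.8) and Sox3 (6.60), and the de novo methyltransferase gene Dnmt3b was kept at 49.2 in WT and 29.1 in KO.

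Neuroectoderm transcription factors had the most losses of any list, 17 of 34 marked promoters, but by rank 15.0 would have been lost, so the share was near that of other weak promoters. The list had a median WT percentile of 10.5. WT H3K27me3 was present at 33 of its 34 marked promoters, including all 17 lost ones. The lost promoters included Neurod1 (27.3) and Neurog2 (1.99), which encode proneural factors, and Olig1 (0.549) and Olig2 (23.8) of the oligodendrocyte lineage. Pax3 (16.1) and Pax6 (1.51), Hes5 (16.5), a Notch target, and Dlx1 (15.8) were also lost. The kept members that ranked higher in KO were 11 of 17, among them Pou3f2 (33.9 in WT and 55.4 in KO) and Atoh1 (35.9 and 54.0). The KO domains at kept members were short, however, with a median of 1400 bp against 9200 bp in WT. In mESC 20 of 39 marked members were lost, but 4 of 31 at week 2 and 2 of 39 at week 3, whereas over all marked coding promoters the lost shares were 12%, 5.33% and 3.73% at these stages. Members gained at the same stages numbered 2, 5 and 1, and over all unmarked coding promoters 3.75%, 6.61% and 6.05% were gained.

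Structural genes of neurons and glia lost 10 of 18 marked promoters, against 4.39 by rank. The lost members with the highest WT percentile were Gad2 (49.2), which encodes a GABA-synthesising enzyme, Syp (44.6), a synaptic vesicle protein, Mbp (30.9), a myelin protein, and Stmn2 (24.8). Tubb3, neuronal beta-tubulin, had a WT domain of 12400 bp at percentile 0.0910 and none in KO. The WT domain at Syp was a single bin of 400 bp. The neurofilament genes Nefl (19.2) and Nefh (5.63) were lost, while Nefm was gained at percentile 49.2 of the KO list, in a single bin of 350 bp. Nes, the intermediate filament gene of neural progenitors, was kept and stood at 30.9 in WT and 66.1 in KO, but the kept members ranked higher in KO at 2 of 8 only, with a median difference of -11.6. Ncam1, a neural adhesion molecule, was at 72.6 in WT and 19.7 in KO, and Snap25, a synaptic fusion protein, at 93.3 and 80.6.

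Of 17 marked promoters of cardiac transcription factors, 1 was lost, that of Tbx1 (31.9), against 1.28 by rank. Nkx2-5 had a domain of 18400 bp at percentile 33.7 in WT and of 19250 bp at 47.4 in KO, Tbx5 was at 40.1 and 44.3, Hand2 at 93.1 and 87.5, and Gata4 at 42.3 and 15.1. Of the 16 kept promoters 7 ranked higher in KO, with a median difference in percentile of -0.52 (KO minus WT).

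Contractile genes had the highest median difference in percentile (KO minus WT) of the lists at kept promoters. All 16 marked promoters were kept, against 2.51 losses by rank, although with a window of 1 kb 1 of 14 was lost, and 2 more were gained, Myh7 (14), the slow myosin heavy chain, and Myl2 (5.91), the ventricular regulatory light chain. The percentile was higher in KO at 13 of 16 kept promoters, with a median difference of 24.6 points. Over all 12491 kept coding promoters it was higher at 41.9%, with a median of -3.04. This reference was not matched on WT rank: the median WT percentile was 39.5 for kept contractile and 67.9 for all kept promoters. A promoter of low WT rank has more room to rise. Mybpc3, which encodes myosin-binding protein C, was at 6.98 in WT and 75.1 in KO. Actc1, cardiac alpha-actin, was at 16.7 and 71.6, and its domain was 4400 bp in WT and 13300 bp in KO. The domain at Myh6, the fast myosin heavy chain, was 2800 bp in WT and 18550 bp in KO, at percentiles 30.9 and 55.7. The calcium release channel gene Ryr2 was at 33.5 and 82.0, Tnnt2 (cardiac troponin T) at 45.5 and 75.1, and Acta2 (smooth muscle actin) at 66.2 and 97.4. Des was lower in KO, at 23.2 against 48.7, as were Myl4 (91.5 against 98.4) and Tpm1 (79.5 against 79.8). The KO domain was the longer one at 10 of 16 promoters, compared with 17.1% of all kept promoters. In mESC the percentile was also higher in KO at 5 of 7 contractile promoters marked in both genotypes, with a median difference of 10.2 points against -7.03 over all coding promoters. At week 2 it was higher at 5 of 12, with a median of -5.41, and at week 3 at 4 of 10, with a median of -0.879. Over all coding promoters the medians were close to these, -5.39 at week 2 and -0.996 at week 3. The percentile was higher in KO at 31.2% and 45.5% of them. In bulk EBs a larger share of muscle cells and more H3K4me3 per cell cannot be told apart.

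**Figure D4:**
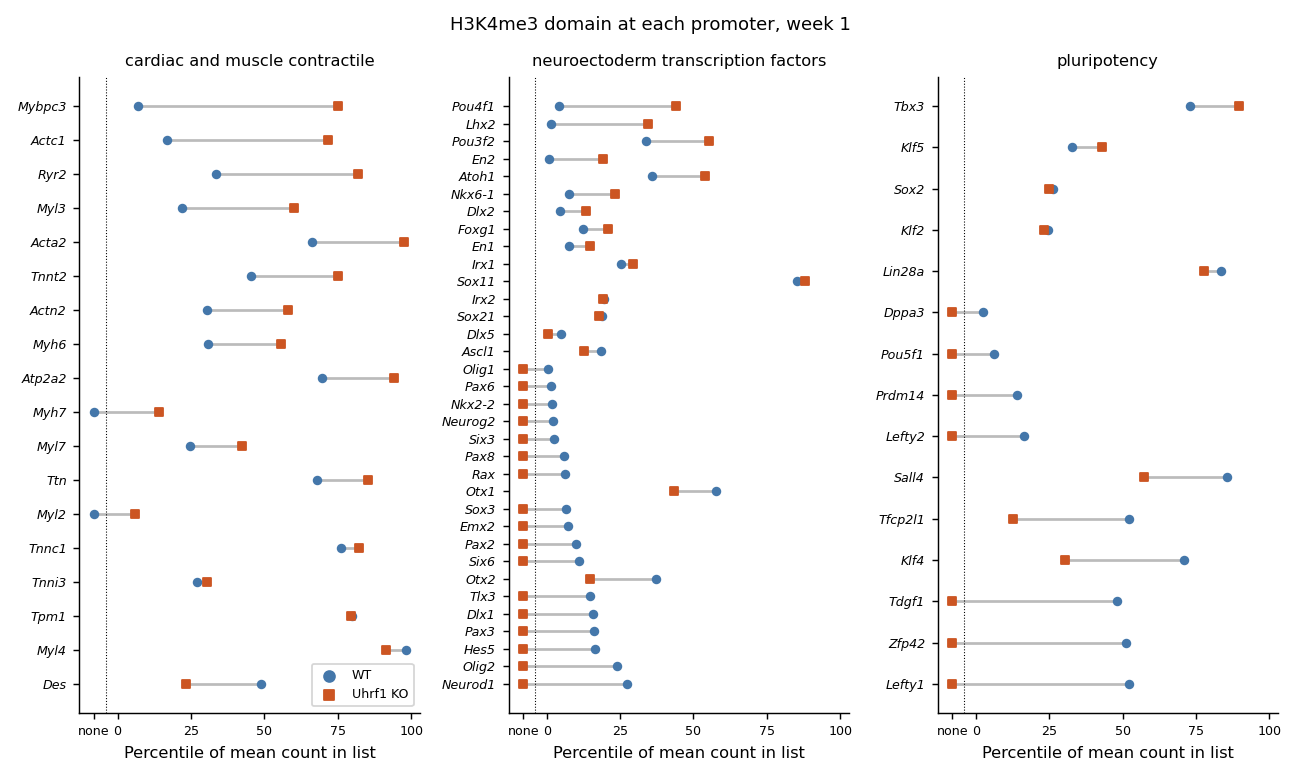
Percentile of mean count of the H3K4me3 domain at each promoter in WT (circles) and Uhrf1 KO (squares), for contractile, neuroectoderm and pluripotency genes marked in at least 1 genotype, with points left of the dotted line where the list had no domain within 2 kb. The KO square lies to the right at 13 of 16 kept contractile promoters, and 17 neuroectoderm and 7 pluripotency promoters have no KO domain.

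Among other lineages, endoderm transcription factors lost 2 of 16 (2.63 by rank), Pdx1 (5.41) and Nkx2-1 (66.2, a single bin of 400 bp). Neural crest genes lost 3 of 17 (4.19 by rank), among them Alx4 (36.4). Blood and endothelial regulators lost 2 of 17 (2.39 by rank), Etv2 (40.6) and Erg (6.60), and their kept promoters ranked higher in KO at 3 of 15. Runx1, at 2.29 in WT and 67.0 in KO, was 1 of these 3. The hepatic and yolk sac list lost 3 of 9 marked promoters (1.95 by rank), Apoa1 (61.3), Fgb (13.7) and Amn (2.85), and had 3 gained ones, Afp (2.19), the fetal serum protein, Cubn (10.4), a receptor of the visceral endoderm, and Trf (1.91), transferrin. Trophoblast genes lost 2 of 10 (1.55 by rank), Tfap2c (19.2) and Ascl2 (3.18), and gained Rhox6 (30.4).

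Among patterning genes, the Hox genes lost 9 of 29 marked promoters, against 10.5 by rank, and gained Hoxc8 (12.7) and Hoxc13 (45.3). Neighbouring Hox genes share domains: Hoxa3, Hoxa6 and Hoxa7 were lost from 1 WT domain of 25200 bp, and Hoxb3 to Hoxb8 were kept in 1 WT domain of 57200 bp and 1 KO domain of 40950 bp. Of Wnt, FGF, TGF-beta and Hedgehog genes, 13 of 41 were lost (8.76 by rank), with Inhbb (41.8), Wnt16 (37.0), Wnt4 (28.9) and Dhh (26.5) among those of higher rank beside Wnt3. WT H3K27me3 was present at 32 of the 41 marked promoters, including all 13 lost ones. Imprinted genes lost 4 of 20, Gnas (59.1), Igf2r (56.0), Igf2 (46.3) and Grb10 (2.01), against 1.43 by rank. With the start of any transcript in place of the outermost one, 2 of 22 imprinted promoters were lost.

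Promoters of all 15 marked genes of the H3K4 methyltransferase complexes were kept (0.305 losses by rank), among them Setd1a at 72.1 in WT and 44.6 in KO and Setd1b at 90.3 and 74.2. Of 23 Polycomb genes 1 was lost, Cbx7 (25.3), against 2.12 by rank, and of 16 DNA methylation genes 1, Dnmt3a (19.7), against 1.09. With the start of any transcript 0 of 23 and 0 of 17 were lost, so neither call held. Dnmt1 was at 70.4 in WT and 58.2 in KO. All 30 ribosomal protein promoters were kept (0.445 losses by rank), with median percentiles of 84.3 in WT and 85.6 in KO. The germline genes that DNA methylation is known to silence were mostly unmarked in both genotypes (27 of 32). Xlr3a (96.6) and Tex13 (50.8) were gained, and Dazl (53.8) and Tdrd1 (46.9), genes of the germ cell RNA pathway, were lost from 3 marked promoters (0.331 by rank). Feeder fibroblast genes lost 1 of 10 (0.977 by rank), Thy1 (13.5), and gained Postn (10.4). Of 12 genes that the study singled out on these samples, and which are thus no independent evidence, 3 were lost, Neurod1, Tubb3 and Wnt2b (3.55), against 2.24 by rank. For Wnt2b the paper reported a loss of H3K27me3. It named Ednra and Otx2 beside Neurod1 as failing to gain H3K4me3 in KO EBs. The calls here are of domain presence at week 1 alone, and gain over differentiation was not tested. By them Otx2 (37.2 in WT and 14.6 in KO) and Ednra (54.6 and 53.5) were kept, and Neurod1 had a KO domain within 5 kb. The domain at Otx2 was 20800 bp in WT and 6650 bp in KO, and that at Ednra 10800 and 5950 bp.

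**Figure D5:**
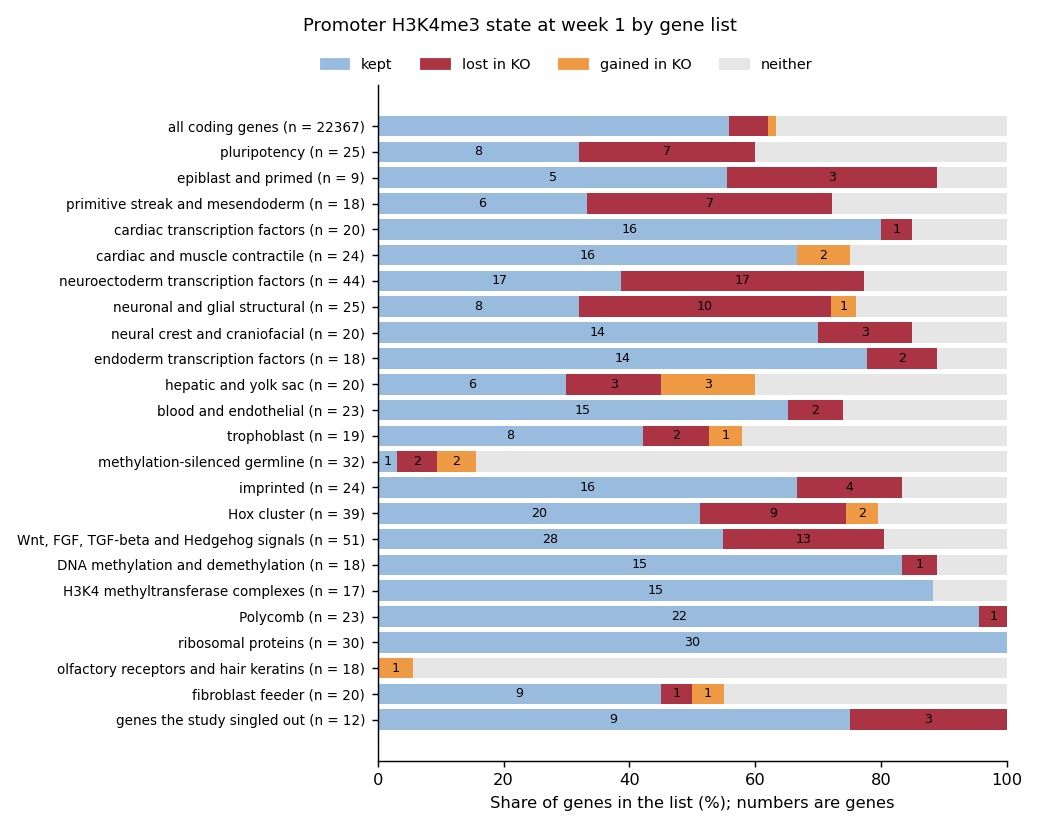
Share of genes (%) in each list whose promoter was kept, lost in KO, gained in KO or marked in neither genotype at week 1, with the number of genes on the bars and all 22367 coding genes on top. Losses are 17 neuroectoderm, 10 neuronal and glial, 7 pluripotency and 7 primitive streak promoters, and 0 contractile, ribosomal and H3K4 methyltransferase promoters.

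The lost promoters of highest WT percentile were not those of developmental regulators. The first 3, Gm10106, Gm17535 and Gm10715, lay in 1 WT domain of 13200 bp at chr9:3025201-3038400, which held the highest mean count of the WT list (167 reads per bin). A KO domain of 350 bp lay at Gm10717 in the same WT domain, so that promoter was kept and the domain counts as shared. This KO domain held the highest mean count of the KO list (221 reads per bin). The other 3 promoters had no KO domain within 5 kb of their starts. Whether KO signal was absent from that part of the repeat was not tested. The reads of such repeats cannot be assigned to 1 copy. Then came Gm9755 (99.5), Gm10020 (96.7), Olfr212 (94.3), Syce1l (92.1) and Daf2 (89.8), a complement regulator. The WT domains at Gm9755, Gm10020 and Daf2 were a single bin of 400 bp each, and that at Olfr212 was 800 bp. The neighbours Rnaset2a and Fgfr1op (both 87.4) shared a WT domain of 30000 bp at chr17:8332001-8362000. Of these 10, Gm9755 was marked in WT and not in KO at each of the other 3 stages.

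Gained promoters of highest KO percentile were 2810055G20Rik (97.7), Xlr3a (96.6), Slc45a2 (84.7), a pigment cell transporter, Gm16378 (84.0), Gm15319 (83.8), Phf21a (83.5), a component of a histone demethylase complex, Palld (82.6), an actin-binding protein, Gm5299 (81.8), and Gm10198 and Gm10736 (78.7 each), which share 1 KO domain of 350 bp. The KO domains at Gm16378 and Phf21a were a single bin of 350 bp each. Xlr3a was unmarked in WT at every stage and marked in KO at weeks 2 and 3. Among families picked after their values were seen, 4 of 10 Xlr genes, a cluster on the X chromosome, and 5 of 21 protocadherin beta genes were gained, while 0 of 10 and 1 of 21 were lost. Members of both families are close copies of each other, and the authors kept 1 alignment per read, so reads may be split among them. Potassium channel genes had 23 lost, 32 kept and 3 gained of 96, with 38 marked in neither genotype. Over all coding promoters, 10% of those marked in WT were lost and 3.10% of the others gained. Losses by rank were not computed for these families, so weak promoters in general were not set apart. Of all gained promoters 66.9% were marked in WT week 2 and 57.0% in WT week 3, both longer lists than that of WT week 1. Promoters marked in neither genotype at week 1 were marked in these lists in 11.98% and 12.8%, and kept promoters in 99.4% of each.

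The longest unshared domains ranked low and held few genes. The longest WT-only domain, chr14:43998001-44059600, spans 61600 bp at percentile 8.26 and covers 1700001F09Rik. The longest KO-only domain, chr4:146119751-146170850, spans 51100 bp at percentile 7.37 and covers Zfp600. The next WT-only ones, of 40000 bp (chr7:46587201-46627200) and 33200 bp (chr12:22778001-22811200), are intergenic, and the next KO-only ones measured 18900 bp (chr14:52196201-52215100, in Gm5622) and 16100 bp (chr12:55805751-55821850, intergenic). The longest shared domains of the WT list were 153600 bp over Speer4e and its neighbours on chromosome 5 and 120400 bp over Gm6483 on chromosome 8, of which KO domains covered 46.9% and 99.2%. In the KO list the longest was 119700 bp over the same Gm6483 region.

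Of WT-marked promoters, KO lacked 13.4% on chromosome 8, 8.10% on chromosome 11 and 10% on the other chromosomes. Chromosome 8 held 6.76% of WT and 4.89% of KO week 1 domains. The same chromosome held 11.9% of WT and 4.92% of KO H3K27me3 domains at week 1. Chromosome 11 held 8.60% of WT and 10.3% of KO week 1 H3K4me3 domains, and 12.2% of gained promoters against 7.39% of all coding promoters. It held 14.1% of WT and 13.2% of KO H3K27me3 domains at week 1. The cause was not tested.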

How the data were processed

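ChIP-seq reads of each library were mapped by the authors to mm9 with Bowtie2 2.1.0, keeping 1 alignment per read, and histone domains were called with the rseg-diff program of RSEG, 1 list per library; the tool and build names are also in the submitters' processing notes for Bowtie2 and mm9. For each domain the authors deposited its position, a signal (the mean number of reads in its bins) and a domain score. The lists give no read totals, so the depth of each library is unknown. The signal was ranked within a list and the score was not compared between lists. The 8 inputs, the factor summits and the KO H3K9me3 list were not used here.

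Genes came from the GENCODE annotation of NCBIM37 (22367 coding genes), and sequences from that assembly; 0 of 383 pairs of list and chromosome passed a chromosome end. Of 525 listed genes 517 matched by symbol or synonym. Shares have Wilson, differences Newcombe and medians order-statistic 95% intervals (Python 3.11.15, numpy 2.4.6, pandas 2.3.3, scipy 1.17.1, matplotlib 3.10.9). No p-value is given. Where several domains met a promoter, the one of highest mean count was used.

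Members and gene lists were chosen with earlier results of these data known. Named genes are up to 8 lost or gained members per list by percentile, the 10 lost and 10 gained promoters of highest percentile with no domain of the other genotype within 5 kb, the 3 longest domains per class, and 12 genes of the study; kept members, the Xlr, protocadherin and potassium channel families, the percentile differences of kept promoters, the losses by rank and 5 of the sequences were chosen after values were seen. Of the 8 sequences set by the rule, 5 are shown, and some named members are not reported here. Overlap calls were tested on simulated data, with 0 of 18663 domains wrong. Processing alternatives were 50% coverage, domains above the median, base pairs, equal lists, extended domains, other windows, starts and gene sets.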

Additional observations from a re-analysis of the deposited data

Results flagged for a closer look

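For 5 gene lists the balance of gained minus lost promoters had opposite signs at week 1 and at another stage and was at least 2 promoters in size at both, each from 1 library per genotype; the differences were not tested. Pluripotency genes had a balance of -7 at week 1 and 2 at week 2, where 0 of 19 marked promoters were lost. Primitive streak and mesendoderm genes had -7 at week 1 and 2 at week 3. Neural crest genes had -3 at week 1 and 2 at week 2. The Hox genes had -7 at week 1 and 6 at week 2, with neighbouring genes in shared domains. Contractile genes had 2 at week 1 and -3 in mESC, where 10 members were marked in WT and 3 were lost. Signs were also opposite, with a balance of 1 promoter at one stage or both, for neuroectoderm transcription factors (-17 at week 1 and 1 at week 2), neuronal and glial genes (-9 and 1), blood and endothelial genes (-2 and 1), cardiac transcription factors (-1 and 1), and olfactory receptor and keratin genes (1 at week 1 and -1 in mESC). Over all coding promoters, 10% of those marked in WT were lost and 3.10% of the others gained at week 1, against 5.33% and 6.61% at week 2, 3.73% and 6.05% at week 3, and 12% and 3.75% in mESC.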

How the results depend on the processing

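No paired analysis was possible because each genotype had 1 library and no test was made; no replicate could be left out. Of 57 alternative values for the overlap, position and promoter results, 18 stayed within the 95% interval or spread of the reported value, 39 moved and 0 reversed; the cause was not tested unless the setting itself sets it. The shared percentage was 75.3 for WT and 81.4 for KO. Requiring 50% of a domain to be covered gave 58.5 and 79.1, only domains above the median mean count 76.1 and 77.1, extension by 2 kb 77.1 and 83.7, base pairs 59.7 and 87.0, leaving out chromosomes 8 and 11 77.2 and 82.4, and shortening the longer list 74.1 for WT. The promoter share of WT-only minus shared WT domains was -36.1, -26.8 and -47.4 points with 50% coverage, the median limit and extension, and -46.7 with a 5 kb window. For KO-only minus shared KO domains these were -62.5, -43.2, -62.3 and -62.9, and -62.5 with a 1 kb window. The H3K27me3 difference was 15.7 with 50% coverage and 11.6 with the median limit. With 50% coverage the median length was 2400 bp for WT-only and 1050 bp for KO-only domains, and the median percentiles were 25.3 for WT-only, 68.3 for shared WT and 57.8 for shared KO domains; with extension the shared ones were 60.3 and 55.5. Lost promoters were 10.8% with a 1 kb window, 18.25% with the median limit in both lists, 12.1% over every annotated gene, 8.42% with no KO domain within 5 kb, and 1.93% when WT domains above the median met every KO domain. Gained promoters were 3.77% with a 5 kb window, 7.81%, 2.34% and 2.69% under the same middle 3 settings, and 0.837% when KO domains above the median met every WT domain. Of 115 alternative counts of lost promoters in the gene lists, 89 stayed within 1.5 times the reported count and 26 moved, 15 of them under the median limit in both lists. That limit gave 1 of 2 neuroectoderm, 5 of 8 blood and endothelial, 3 of 5 endoderm, 4 of 7 pluripotency, 2 of 14 H3K4 methyltransferase and 0 of 0 Hox promoters lost. The start of any transcript gave 0 of 23 Polycomb, 0 of 17 DNA methylation and 2 of 22 imprinted promoters, and a 1 kb window gave 1 of 14 contractile and 0 of 16 cardiac transcription factor promoters. Contractile promoters ranked higher in KO at 10 of 13 with a 1 kb window and 13 of 16 with 5 kb. The limits by median against every domain of the other genotype, the chromosomes and the contractile settings were chosen after seeing the data.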

Other observations

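Dnmt3l and Tet1, which act in DNA methylation and demethylation in stem cells, had no domain at the outermost start in either genotype at week 1. By that start 16 of the 18 genes of their list were marked in WT. With the start of any transcript 17 were, and 0 of these were lost. Tet2 was at percentile 97.4 in WT and 68.0 in KO, and Tdg, a base excision enzyme of demethylation, at 62.7 and 98.4. In the endoderm list, Sox17 was at 56.6 and 10.4 and Sox7 at 39.4 and 2.56, and kept promoters ranked higher in KO at 4 of 14. Among blood and endothelial genes the median difference over 15 kept promoters was -22.1 points. Gata2 was at 27 in WT and 0.846 in KO. In the imprinted list Magel2 was at 40.7 and 93.7 and Zim1 at 68.6 and 3.85.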
